A study of Homo sapiens with 12 samples.

Results

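The 35 genes described here act in neurons and endocrine cells, where they build secretory granules and synaptic vesicles, make and break down transmitters, and form the cytoskeleton of axons and dendrites. They were taken from a list of such genes, headed by the repressor REST. Most were listed for their known function, while HPCAL4, ABAT and SCG2 were selected on their measured values in SAHA minus DMSO, where they had been seen among the largest rises. The whole list was chosen with earlier results of these data known, so the other genes are not shown to be free of selection. All 35 listed genes were measured, of 11963 genes on the array. The label under which they were grouped was neuronal and secretory genes derepressed by inhibition of histone deacetylases. In SAHA minus DMSO, 8 of the 35 (22.9%) were at least 2-fold higher, beside 9.44% of all genes. HPCAL4, ABAT and SCG2 are among these 8 and were picked for that rise. Without them, 5 of 32 (15.6%) rose by at least 2-fold in SAHA with pargyline minus pargyline, beside 8.96% of all genes. Most of the genes that did not rise read near the array background in every group.

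The samples were 12 cultures of MDA-MB-231, an established human breast cancer line with mesenchymal features, each treated for 24 h and measured on 1 array. In the order used below, the groups were 5 µM SAHA together with 2.5 mM pargyline, 5 µM SAHA alone, 2.5 mM pargyline alone, and the vehicle DMSO, with 3 biological replicates each. SAHA (vorinostat) inhibits histone deacetylases. Pargyline inhibits monoamine oxidases and can inhibit the histone demethylase LSD1, which KDM1A encodes. The labels give 1 dose of each drug and 1 time.

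In most cells outside the nervous system, REST binds a DNA element called RE1 near neuronal genes and holds them down through corepressors, CoREST and SIN3, that carry histone deacetylases and LSD1. Many genes for secretory granules and synapses have such an element. Dense-core granules store peptides and are packed with granins, while synaptic vesicles store small transmitters and fuse with the membrane through SNARE proteins under the control of calcium sensors.

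Sequences upstream of the genes are shown first because many genes for secretory granules and synapses have an RE1 element. In the RefSeq promoter table, on build GRCh38.p14, 27 of the 35 genes were found, and SCG2, SNAP25, STMN2, CHGB, NEFL, NEFM, NEFH and MAPT were not. The 250 bases before each start were searched on both strands for an RE1-like sequence, TTCAGCACC and GGACAGCGC with 2 free bases between them and at most 4 mismatches of 18 letters. It was present in 177 of 35116 promoters of the table (0.504%). Of the 48 promoters of the 27 genes it was present in 3, in GRIA2 (chr4:157220389-157220408, minus strand), SYN1 (chrX:47620071-47620090, minus strand) and GAD2 (chr10:26216291-26216310, plus strand). The sites are written 5′ to 3′, with the letters that match the searched sequence in capitals.
GRIA2: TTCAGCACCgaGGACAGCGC
SYN1: TTCAGCACCgcGGACAGtGC
GAD2: ggCAGCACCcgGGACAGCGg
The SYN1 site had 1 mismatch and lay 213 bases before the start of the gene, and the GAD2 site had 3 and lay 61 bases before it. The GRIA2 site had 0 mismatches and lay 210 bases before a start listed for GRIA2 that is not its first, which is at position 157220120, so the site is within the gene. A match is a run of letters and not a measured binding site. RE1 elements also lie inside genes and far from starts, which this window does not cover.

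Of the 3 genes with these letters, none passed in any of the 3 comparisons tested without a block for the replicate number. With that block GAD2 was lower with both drugs than with pargyline or with SAHA, by 0.08 and 0.10 near background (limma adjusted p = 0.024 and 0.026). GRIA2, a subunit of AMPA glutamate receptors, had group means that spanned 0.0498 on the log2 scale at a highest mean of 2.25. SYN1, which tethers synaptic vesicles to actin, spanned 0.0505 at 2.31. GAD2, 1 of the 2 enzymes that make GABA, spanned 0.111 at 3.20. All 3 sat in or just above the range of 2.13 to 2.55 of the array's 3 trp probe sets, which are directed against a bacterial gene and were taken here as background.

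Whole upstream windows of SYN1, HPCAL4 and STX1A follow, as examples of a gene at background, a gene that rose and a gene that fell with SAHA. They are 250 bases each, on the strand of the gene and ending at its start. The SYN1 window is chrX:47619858-47620107, that of HPCAL4 is chr1:39691434-39691683 and that of STX1A is chr7:73719670-73719919, all on the minus strand. Capitals mark the RE1-like site with its free bases and the cAMP response element TGACGTCA in SYN1, and the GC box GGGCGG in the other two.
SYN1: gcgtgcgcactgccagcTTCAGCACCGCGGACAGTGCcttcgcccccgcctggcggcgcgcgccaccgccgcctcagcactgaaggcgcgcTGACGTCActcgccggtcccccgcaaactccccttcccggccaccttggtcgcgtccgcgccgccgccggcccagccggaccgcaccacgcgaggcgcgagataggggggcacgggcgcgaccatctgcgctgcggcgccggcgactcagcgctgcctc
HPCAL4: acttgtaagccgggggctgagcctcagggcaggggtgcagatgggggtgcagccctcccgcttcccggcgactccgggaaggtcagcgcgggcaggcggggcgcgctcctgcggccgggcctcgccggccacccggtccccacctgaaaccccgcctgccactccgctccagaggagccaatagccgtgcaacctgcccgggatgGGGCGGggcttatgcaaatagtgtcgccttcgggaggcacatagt
STX1A: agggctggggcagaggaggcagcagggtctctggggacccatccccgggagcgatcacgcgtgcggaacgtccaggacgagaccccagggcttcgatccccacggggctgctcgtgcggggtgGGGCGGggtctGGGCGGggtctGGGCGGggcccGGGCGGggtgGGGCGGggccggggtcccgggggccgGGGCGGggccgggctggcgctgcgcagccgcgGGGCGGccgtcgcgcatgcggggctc
All 3 windows were rich in G and C, at 76.8% for SYN1, 70.8% for HPCAL4 and 80.8% for STX1A. The GC box was found on either strand in 24 of the 48 promoters of the 27 genes, and in 42.6% of all promoters in the table. TGACGTCA was found in 5 of the 48, of CHGA, KIF1A, KIF5C, SYN1 and VGF, and in 1.65% of all promoters. TATAAA was found in 3 of the 48, of GAD1, UCHL1 and VGF, and in 10.7% of all promoters. Counted by gene, the GC box was found for 20 of the 27 genes and for 46.2% of all genes in the table. Among genes with large differences under SAHA, it was found for HPCAL4, ABAT, L1CAM, DPYSL3 and STX1A and not for MAP2, SYT11 and GAD1. SCG2 and MAPT had no promoter in the table and could not be searched.

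The deposited values are log2 intensities, and each gene was read from its brightest probe set over the 12 arrays. Array medians lay between 5.15 and 5.38, and the middle one of 3 was 5.32 with both drugs, 5.28 with SAHA, 5.30 with pargyline and 5.17 with DMSO. Replicates correlated with r of 0.998 to 0.999 across probe sets, and the 3′ actin control stood 0.62 to 0.96 above the 5′ one on every array. All 8 markers expected at a high level in MDA-MB-231 (among them VIM and CD44) read 11.26 to 14.90 as group means. Of the markers expected to be low, ESR1, PGR, CDH1 and KRT5 read 1.73 to 3.15, whereas EPCAM read up to 8.42 and GATA3 up to 9.42. Of 7 identity factors of neurons or neuroendocrine cells, 6 stayed under 2.55 in all groups, and the exception was TUBB3, at 12.94 to 13.72. All 3 leukocyte markers measured stayed under 2.55. The fibroblast markers PDGFRA, DCN and LUM read 2.85 to 3.25 and COL1A1 6.10 to 6.31.

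A gene was called dim where its highest group mean was under 2.79, the lower tertile of the mean values over all genes. Of the 35 genes, 16 were dim, and 15 had no group mean above the highest value of the trp probe sets. The dim genes read between 1.58 and 2.71 on every array. In 21 of the 35 genes the 4 group means lay within 0.2 of each other. For the dim genes the arrays give no level that can be told from background, which differs from a measurement that the gene is off.

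**Figure D1:**
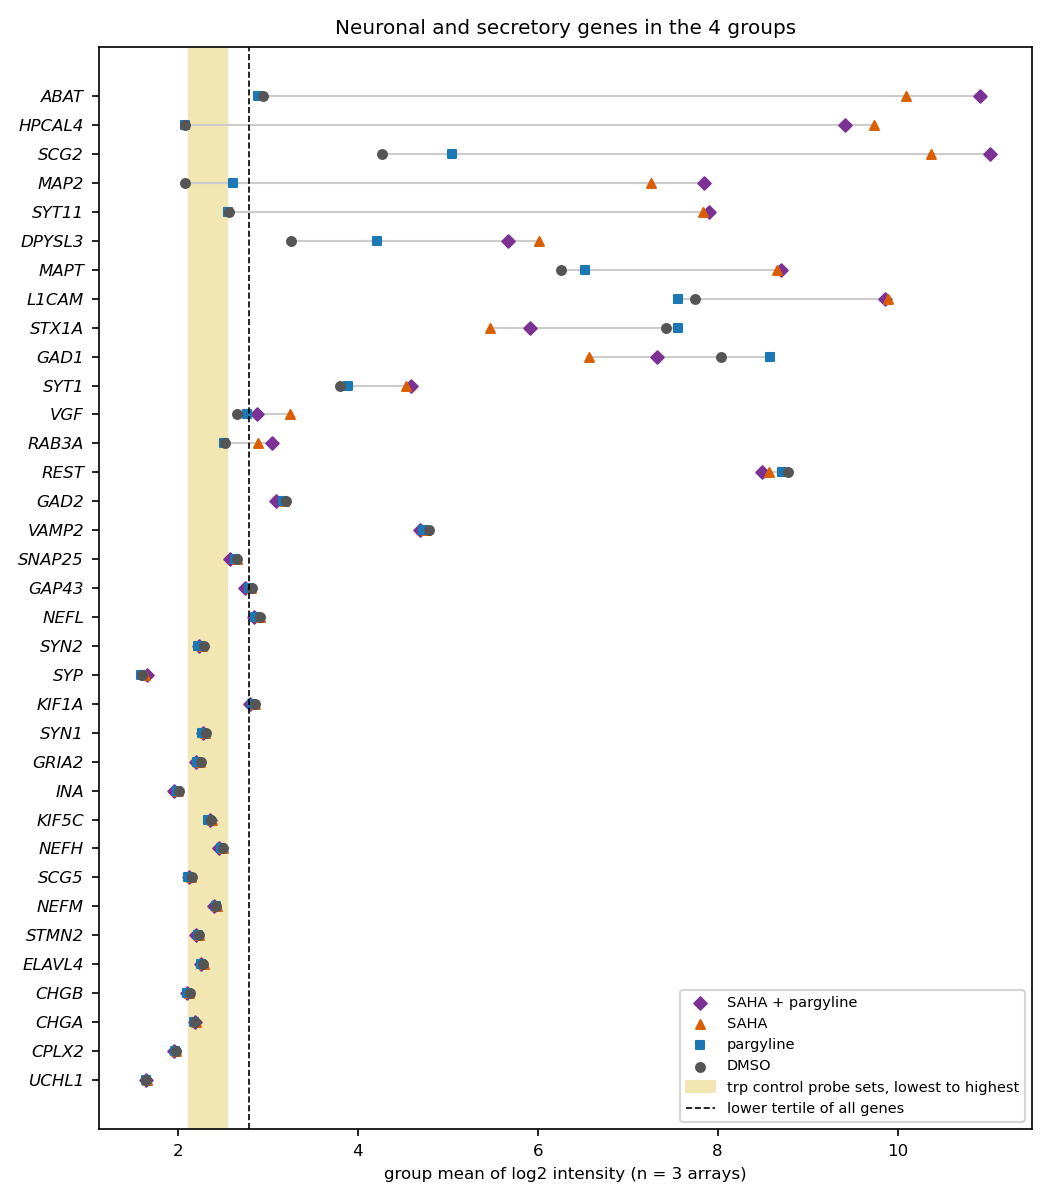
Group means of log2 intensity for the 35 genes (horizontal axis, n = 3 arrays per group), with the genes ordered from the widest to the narrowest range of group means. Diamonds are SAHA with pargyline, triangles SAHA, squares pargyline and circles DMSO. The shaded band is the range of the trp probe sets, 2.13 to 2.55, and the dashed line is the lower tertile of all genes, 2.79. A small set of genes spans several log2 units, while most of the lower rows have 4 overlapping points in or near the band.

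A pair of contrasts shows the response to SAHA. SAHA minus DMSO was the contrast in which HPCAL4, ABAT and SCG2 had been picked, so the values there are a description with no test. SAHA with pargyline minus pargyline uses the other 6 arrays, and it was tested by limma in a model of all 12 arrays, with Benjamini-Hochberg adjustment over all 11963 genes and a threshold of 0.05. In SAHA minus DMSO, 8 of the 35 genes (22.9%) were at least 2-fold higher and 2 (5.71%) at least 2-fold lower, beside 9.44% and 8.79% of all genes. In SAHA with pargyline minus pargyline, 9 of the 35 genes (25.7%) rose and 2 (5.71%) fell, beside 23.9% and 23.6% of all genes, and 24 did not pass. The share that rose was thus near that of all genes. Those that rose by at least 2-fold were 8 (22.9%), and those that fell by as much were 2, beside 8.96% and 9.18% of all genes. Without HPCAL4, ABAT and SCG2, 6 of 32 (18.8%) rose, 5 of them (15.6%) by at least 2-fold. The median log2 difference of the 35 genes was 0.0019, beside 0.0001 over all genes.

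Among the genes of dense-core granules, SCG2 (secretogranin II, a granin and the precursor of secretoneurin) was the one that moved. It read 11.12, 11.11 and 10.84 with SAHA and pargyline, 10.47, 10.44 and 10.21 with SAHA, 4.81, 5.31 and 5.03 with pargyline, and 4.39, 4.26 and 4.16 with DMSO. The 4 groups did not overlap, and each drug's arrays were above those of DMSO. Added to pargyline, SAHA raised SCG2 by 5.97 ± 0.13 (log2, SE), or 62.7-fold, with a limma adjusted p of 3.16e-09. The description in SAHA minus DMSO was 6.10 ± 0.13. SCG2 was measured by 1 probe set.

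The other granule genes did not follow it. CHGA and CHGB, the chromogranins that make up much of the granule core, had group means of 2.18 to 2.21 and 2.10 to 2.13. SCG5, a chaperone of prohormone convertase 2, had group means of 2.11 to 2.15. VGF, a granin-like precursor of several peptides, read 2.82, 2.86 and 2.96 with both drugs, 2.78, 3.69 and 3.26 with SAHA, 2.82, 2.72 and 2.76 with pargyline, and 2.53, 2.69 and 2.75 with DMSO. The SAHA arrays at 3.69 and 3.26 stood above all the others, while the combination overlapped pargyline (limma adjusted p = 0.699).

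HPCAL4, a neuronal calcium sensor of the visinin-like family, read 9.54, 9.39 and 9.32 with SAHA and pargyline, 9.92, 9.81 and 9.48 with SAHA, 2.06, 2.10 and 2.07 with pargyline, and 2.07, 2.08 and 2.09 with DMSO. The arrays without SAHA were at or under the trp level. SAHA added to pargyline raised it by 7.34 ± 0.10 (log2, SE; limma adjusted p = 8.12e-11). Counted from the dim limit rather than from the pargyline mean under it, that is a rise of at least 98.6-fold. A further HPCAL4 probe set read 1.71, 1.84, 1.60 and 1.57 as the means of the 4 groups in the same order, so the rise rests on 1 probe set, and the mean of both sets gave 3.72.

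SYT11 and SYT1 are synaptotagmins, membrane proteins of vesicles, and SYT1 is the calcium sensor of fast transmitter release. SYT11 read 8.13, 7.96 and 7.63 with both drugs, 7.80, 8.07 and 7.63 with SAHA, 2.55, 2.58 and 2.53 with pargyline, and 2.56, 2.58 and 2.57 with DMSO. The groups with SAHA overlapped each other and lay far above the groups without it, which were dim. Relative to pargyline, SYT11 rose by 5.35 ± 0.13 (log2, SE; limma adjusted p = 5.05e-09), at least 34.6-fold over the dim limit. Its further probe set gave means of 6.98, 7.33, 2.07 and 2.35. SYT1 read 4.18, 4.50 and 5.10 with both drugs, 4.08, 4.43 and 5.10 with SAHA, 3.91, 3.90 and 3.87 with pargyline, and 3.60, 3.91 and 3.91 with DMSO. All 6 arrays with SAHA were above the 6 without it, by a difference of 0.70 ± 0.27 from pargyline (limma adjusted p = 0.060) that did not pass. SYT1 passed with the replicate number as a block (limma adjusted p = 0.020). Its further probe set differed by 0.56, with overlap.

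**Figure D2:**
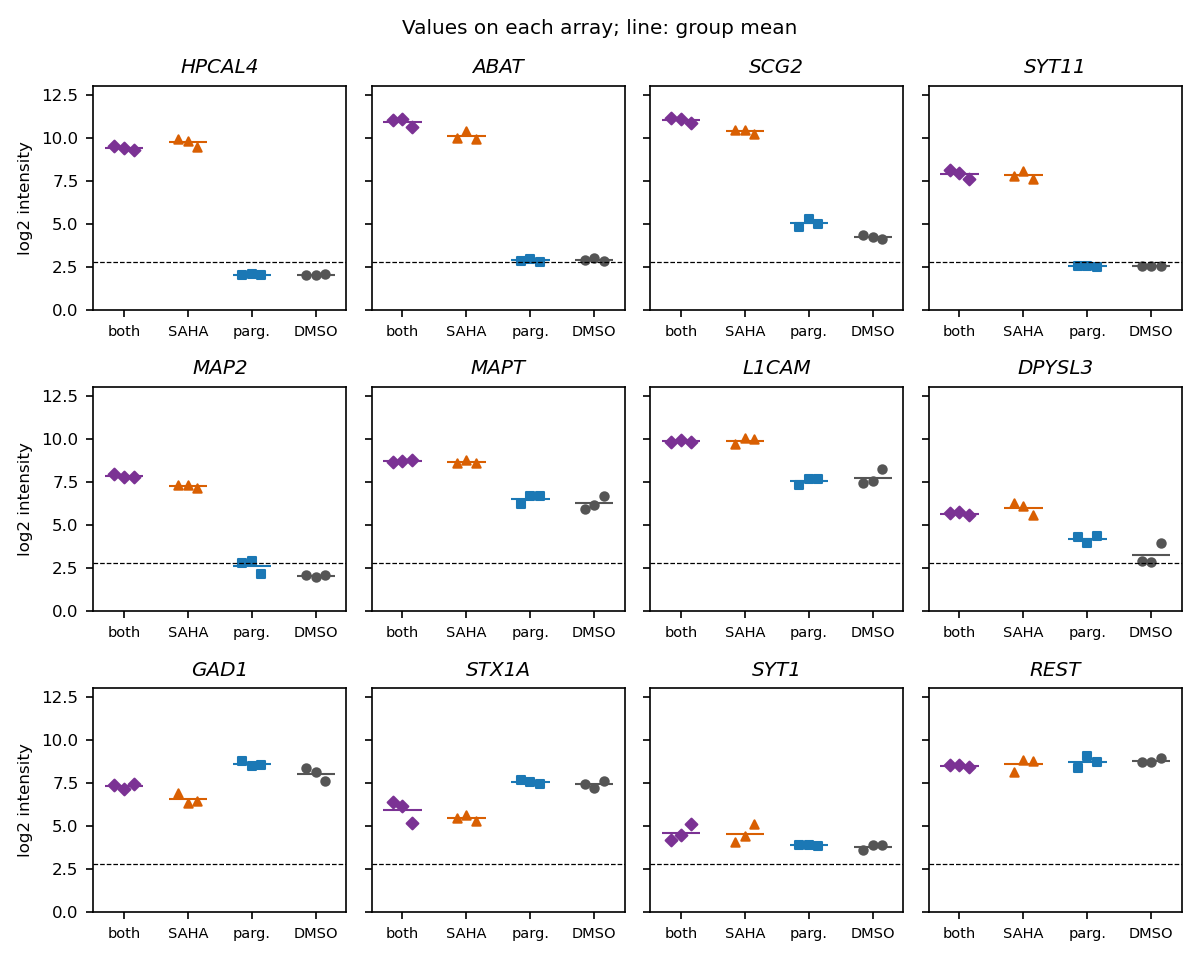
Log2 intensity on each array for 12 of the genes (vertical axis), by group (horizontal axis), where "both" is SAHA with pargyline and "parg." is pargyline; lines are group means of 3 arrays and the dashed line is the dim limit of 2.79. HPCAL4, ABAT, SCG2, SYT11 and MAP2 are high in both groups with SAHA, MAPT and L1CAM are moderately higher, GAD1 and STX1A are lower, and REST overlaps across the tested pairs.

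The neuronal SNARE genes among the 35, STX1A, SNAP25 and VAMP2, were not among those that rose. STX1A, syntaxin 1A of the plasma membrane, read 6.37, 6.18 and 5.18 with both drugs, 5.49, 5.62 and 5.30 with SAHA, 7.69, 7.56 and 7.44 with pargyline, and 7.45, 7.19 and 7.62 with DMSO. All arrays with SAHA were under all arrays without it. STX1A fell by 1.65 ± 0.27 on the log2 scale when SAHA was added to pargyline (limma adjusted p = 5.2e-04), to 0.318 of the pargyline level. SNAP25, its partner on the membrane, had group means of 2.58 to 2.66, and CPLX2, which binds the assembled complex, 1.96 to 1.98. VAMP2, the SNARE of the vesicle, was measured above background at group means of 4.70 to 4.79, and its difference of -0.03 did not pass (limma adjusted p = 0.707).

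Of the other vesicle proteins, RAB3A, a small GTPase of vesicle docking, read 3.33, 3.06 and 2.76 with both drugs, 3.10, 2.78 and 2.78 with SAHA, 2.67, 2.16 and 2.69 with pargyline, and 2.70, 2.71 and 2.17 with DMSO. Arrays with SAHA were all above arrays without it, but the difference from pargyline of 0.54 ± 0.21 did not pass (limma adjusted p = 0.060). RAB3A passed with the replicate number as a block (limma adjusted p = 0.036). SYN2, a synapsin of the vesicle surface, had group means of 2.23 to 2.29. SYP, synaptophysin, an abundant membrane protein of synaptic vesicles, passed the test with a difference of 0.07 ± 0.02 (limma adjusted p = 0.039) at group means of 1.59 to 1.66, under every trp value. Its call was lost in 10 of 19 other settings, among them a fit of the 2 groups alone (limma adjusted p = 0.132).

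ABAT and GAD1 act at opposite ends of the life of GABA, and they moved in opposite directions. ABAT, the mitochondrial transaminase that breaks GABA down, read 11.05, 11.09 and 10.61 with both drugs, 10.003, 10.37 and 9.91 with SAHA, 2.87, 3.00 and 2.81 with pargyline, and 2.93, 3.03 and 2.87 with DMSO. The arrays without SAHA were just above the dim limit, and those with SAHA were higher by 8.03 ± 0.15 relative to pargyline (log2, SE; limma adjusted p = 1.14e-09). That is a rise of 261-fold, from a pargyline level near background. A second ABAT probe set gave means of 9.67 with both drugs, 8.90 with SAHA, 1.74 with pargyline and 1.71 with DMSO. The third gave 2.16, 1.92, 1.87 and 1.88, and the mean of all 3 gave a rise of 5.41.

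GAD1, the enzyme GAD67 that makes GABA from glutamate, read 7.39, 7.14 and 7.44 with both drugs, 6.94, 6.34 and 6.43 with SAHA, 8.74, 8.50 and 8.52 with pargyline, and 8.36, 8.13 and 7.63 with DMSO. Each group with SAHA lay under both groups without it. GAD1 fell by 1.26 ± 0.20 (log2, SE) when SAHA was added to pargyline (limma adjusted p = 5.2e-04), to 0.417 of the pargyline level. A second probe set gave group means of 6.84, 6.48, 8.30 and 7.66, and the third differed by -0.07, with group means of 3.43 to 3.75. GAD2 differed by -0.08 ± 0.04 (limma adjusted p = 0.177) near background, so the 2 enzymes that make GABA were, in these cells, 1 gene with a clear signal and 1 without. The small GAD2 difference passed with the replicate number as a block (limma adjusted p = 0.024).

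The genes of the neuronal cytoskeleton and of axon growth fell into those that rose and those at background. MAP2, a microtubule-associated protein of dendrites, read 7.94, 7.80 and 7.79 with both drugs, 7.31, 7.31 and 7.16 with SAHA, 2.79, 2.89 and 2.16 with pargyline, and 2.14, 2.02 and 2.08 with DMSO. The 4 groups did not overlap. SAHA added to pargyline raised MAP2 by 5.23 ± 0.16 (log2, SE; limma adjusted p = 1.58e-08), at least 33.2-fold over the dim limit. MAPT, which encodes tau, the microtubule-associated protein of axons, read 8.65, 8.70 and 8.78 with both drugs, 8.59, 8.76 and 8.62 with SAHA, 6.24, 6.67 and 6.69 with pargyline, and 5.93, 6.19 and 6.67 with DMSO. It was above background without SAHA and rose 4.53-fold relative to pargyline (log2 2.18 ± 0.18, limma adjusted p = 5.26e-06). The other 3 MAPT probe sets differed by 2.42, 2.79 and 3.46 in the same direction.

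L1CAM, a cell adhesion molecule of growing axons, read 9.81, 9.93 and 9.84 with both drugs, 9.68, 10.03 and 9.97 with SAHA, 7.32, 7.68 and 7.68 with pargyline, and 7.41, 7.58 and 8.26 with DMSO. The groups with SAHA were above the groups without it, by 2.30 ± 0.20 relative to pargyline (log2, SE; limma adjusted p = 8.26e-06), or 4.92-fold. A second L1CAM probe set stayed at 1.47 to 1.48 in all groups, and the mean of both gave 1.14. DPYSL3, also called CRMP4, which acts on growth cones, read 5.69, 5.73 and 5.58 with both drugs, 6.30, 6.12 and 5.61 with SAHA, 4.31, 3.95 and 4.39 with pargyline, and 2.94, 2.89 and 3.95 with DMSO. One DMSO array stood about as high as the lowest pargyline array. DPYSL3 rose by 1.45 ± 0.28 relative to pargyline (log2, SE; limma adjusted p = 0.0016), and by 0.87 in the mean of its 2 probe sets.

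The neurofilament genes NEFL, NEFM and NEFH and the related INA had group means of 2.84 to 2.91, 2.40 to 2.44, 2.46 to 2.50 and 1.96 to 2.01. These are the intermediate filaments of mature axons, and none of them moved by more than 0.1 between any 2 groups. GAP43 and STMN2, both known from growth cones, had group means of 2.75 to 2.82 and 2.20 to 2.24. The kinesins KIF1A and KIF5C, which carry vesicles along axons, read 2.80 to 2.86 and 2.33 to 2.38. UCHL1, an abundant neuronal ubiquitin hydrolase, read 1.65 in every group, and ELAVL4, a neuronal RNA-binding protein, 2.25 to 2.29.

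REST itself was well above background and did not differ by the test. It read 8.55, 8.52 and 8.40 with both drugs, 8.14, 8.82 and 8.77 with SAHA, 8.38, 9.05 and 8.73 with pargyline, and 8.69, 8.70 and 8.97 with DMSO. The combination overlapped pargyline, with a difference of -0.23 ± 0.20 (limma adjusted p = 0.425), and SAHA overlapped DMSO, with a difference of -0.21 ± 0.20. The combination differed from DMSO by -0.30 ± 0.20 without overlap, which was not tested. A second REST probe set read 2.93 to 3.04. Intensities give the transcript level only, not the REST protein.

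**Figure D3:**
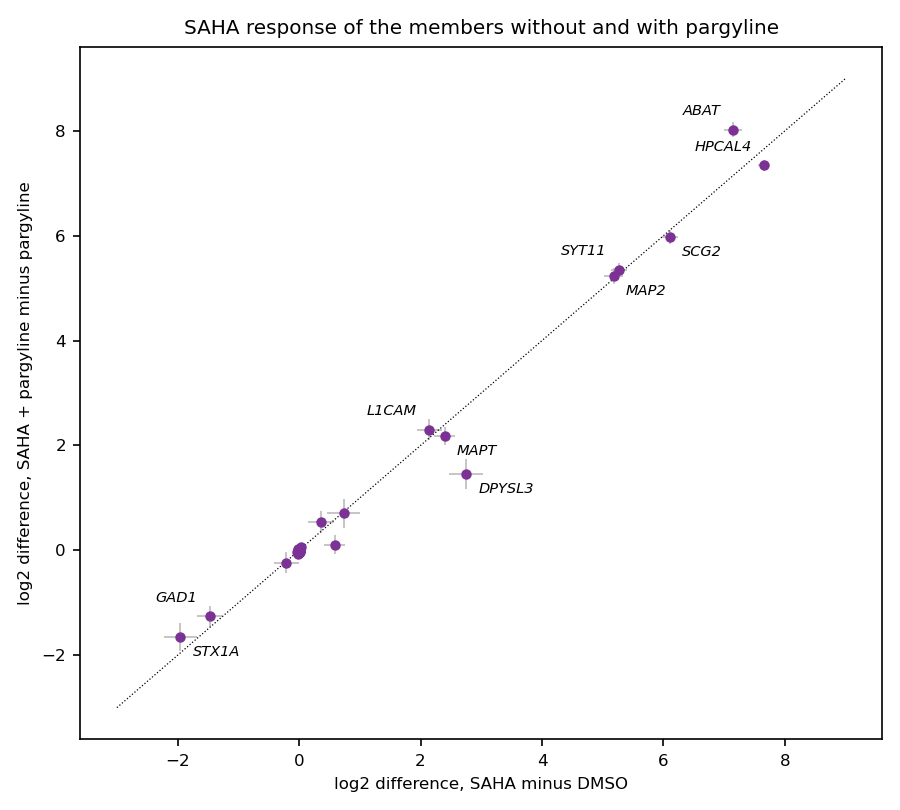
Log2 difference of each of the 35 genes in SAHA minus DMSO (horizontal axis) and in SAHA with pargyline minus pargyline (vertical axis), which share no array; bars are standard errors from the model, n = 3 arrays per group, and the dotted line marks equal differences. The genes named lie at both ends, from STX1A and GAD1 below 0 to HPCAL4 and ABAT above 7, and most of the others lie on top of each other at 0.

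The values in the pair of contrasts, which share no array, stood side by side as follows. HPCAL4 differed by 7.34 with pargyline present and by 7.66 without it, ABAT by 8.03 and 7.15, SYT11 by 5.35 and 5.27, and MAP2 by 5.23 and 5.18. MAPT differed by 2.18 with pargyline present and by 2.40 without it, L1CAM by 2.30 and 2.15, GAD1 by -1.26 and -1.47, and STX1A by -1.65 and -1.95. DPYSL3 had the widest gap of these genes, 1.45 with pargyline present and 2.75 without it. The differences between these paired values were not tested. Against DMSO, the combination was at least 2-fold higher for the same number of genes as SAHA, 8 of 35 (22.9%, beside 10.8% of all genes), and at least 2-fold lower for STX1A alone (2.86%, beside 9.8%).

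Pargyline alone moved few of these genes. Relative to DMSO, 2 of 35 (5.71%), SCG2 and DPYSL3, rose, beside 8.48% of all genes, and 0 fell, beside 7.45%, while 33 did not pass. These counts are without a block for the replicate number. With that block DPYSL3 did not pass and MAP2 did, and 1207 of all genes rose and 1121 fell. The DMSO arrays had served to pick SCG2, so its difference here is a description, and without the 3 picked genes 1 of 32 (3.12%) rose. In limma at an unadjusted p under 0.05, 4 were higher and 1, SYN2, was lower by 0.07 at background. The median of the 35 genes was -0.02, the same as over all genes to this precision. The count of falls depends on the scaling. With each array centred on its median, the median gene stood at -0.15 and 872 of all genes rose and 6168 fell, against 1014 and 891 as deposited, and 21 of the 35 genes fell.

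SCG2 stood 0.78 ± 0.13 higher with pargyline than with DMSO (log2, SE), or 1.72-fold, without overlap. DPYSL3 rose by 0.96 ± 0.28 (limma adjusted p = 0.048), with 1 DMSO array inside the range of the pargyline arrays, and its call was lost in 14 of 20 other settings. Leaving out DMSO replicate 1 or 2, for example, gave 0.80 and 0.77 (limma adjusted p = 0.163 in both). A second DPYSL3 probe set went the other way, by -0.19, with groups that overlapped. MAP2 stood 0.53 ± 0.16 higher and did not pass (limma adjusted p = 0.052). With the replicate number as a block, DPYSL3 did not pass (limma adjusted p = 0.070) and MAP2 did (limma adjusted p = 0.038). GAD1 stood 0.54 ± 0.20 higher with groups that did not overlap, and did not pass either (limma adjusted p = 0.113). HPCAL4, ABAT and SYT11 differed from DMSO by -0.01, -0.05 and -0.01, so the genes with the largest differences under SAHA included some with a difference near 0 under pargyline.

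Pargyline added to SAHA was compared for 32 genes, since the SAHA arrays had served to pick HPCAL4, ABAT and SCG2. Of the 32, 2 (6.25%) rose, beside 7.88% of all genes, and 0 fell, beside 8.71%, while 30 did not pass. These counts are without a block for the replicate number. With that block GAD2 fell (limma adjusted p = 0.026), and 1169 of all genes rose and 1250 fell. In limma at an unadjusted p under 0.05, 2 were higher and 2, GAD2 and SNAP25, were lower, by at most 0.10 near background. With each array centred, 715 of all genes rose and 1347 fell, against 943 and 1042 as deposited. The median of the 35 genes was -0.03, beside -0.02 over all genes.

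The 2 that rose were MAP2 and GAD1. MAP2 was higher by 0.58 ± 0.16 with both drugs than with SAHA (log2, SE; limma adjusted p = 0.035), and GAD1 by 0.76 ± 0.20 (limma adjusted p = 0.033), so that GAD1 lay between SAHA and DMSO when both drugs were given. The groups did not overlap in the probe set used for either gene. The other GAD1 probe sets differed by 0.36 and 0.25, with overlap. MAP2 lost its call in 8 of 20 other settings and GAD1 in 7 of 20, leaving out any 1 of several arrays among them, with adjusted p up to 0.102 for MAP2 and 0.115 for GAD1. ABAT was 0.82 ± 0.15 and SCG2 0.65 ± 0.13 higher with both drugs than with SAHA, without overlap, and HPCAL4 was 0.32 lower, with overlap. These 3 are values without a test. MAPT did not pass in the probe set used, with a difference of 0.05 (limma adjusted p = 0.892). Its other probe sets were higher by 0.39, 0.38 and 1.27 without overlap, and these were not tested. With the replicate number as a block, GAD2 also passed, lower by 0.10 near background (limma adjusted p = 0.026).

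Probe sets of the same gene did not always give the same difference. Of the 35 genes, 19 had more than 1 probe set, with 27 further probe sets in all. In SAHA with pargyline minus pargyline, 6 of the 27 differed from the one used by more than 1 on the log2 scale. A further 5, of SNAP25, GAD2, SYN2, KIF1A and KIF5C, differed from it in sign alone, where both differences were under 0.1. For HPCAL4, ABAT, L1CAM, DPYSL3 and GAD1, a further probe set showed little or no difference at a dim or low level. For MAPT the further set showed more, 3.46 against 2.18. Which transcripts or which parts of them each set detects was not analysed here.

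**Figure D4:**
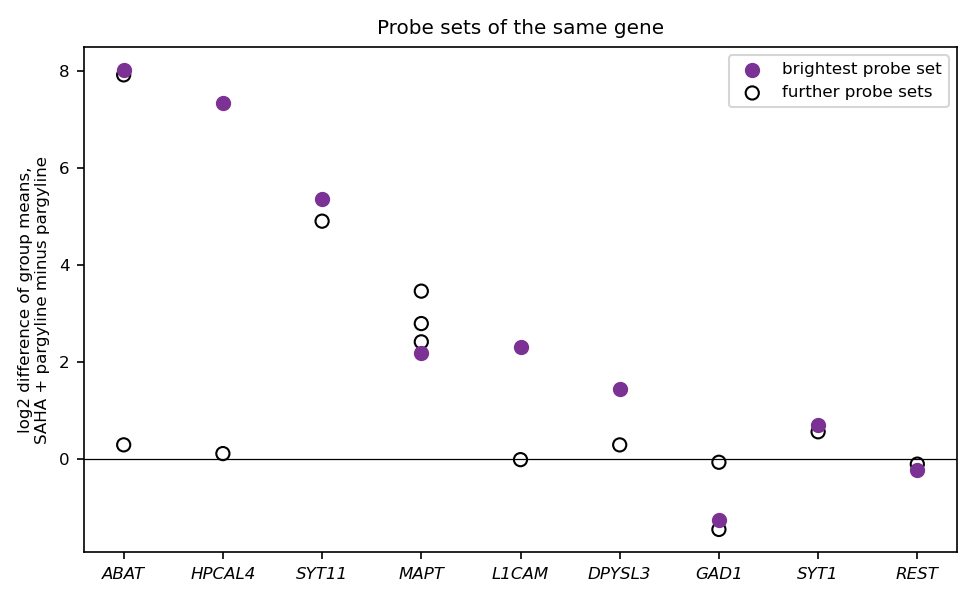
Log2 difference of group means in SAHA with pargyline minus pargyline (vertical axis, n = 3 arrays per group) for each probe set of 9 genes (horizontal axis); filled points are the brightest probe sets and open points the further ones. HPCAL4, ABAT, L1CAM, DPYSL3 and GAD1 each have an open point near 0 beside a filled one away from 0, whereas the points of SYT11 and MAPT all lie well above 0.

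Related genes were read from lists of the same pathways that leave the 35 out, except for REST, which also heads the list of its own complex. Of 19 measured genes of the REST complex, 4 rose and 2 fell in SAHA with pargyline minus pargyline, and 13 did not pass. Of all genes, 23.9% rose and 23.6% fell in that contrast, shares that also stand beside the counts of the lists below. HDAC5, a class IIa histone deacetylase, rose by 2.35 ± 0.19 to a mean of 6.80 ± 0.17 (SD, n = 3) with both drugs, against 4.45 ± 0.35 with pargyline. SIN3B, the scaffold of a deacetylase complex, rose by 0.93 ± 0.08, HMG20B of the CoREST complex by 0.82 ± 0.06, and the chromodomain protein CDYL by 0.37 ± 0.05. CTDSP1, a phosphatase of the RNA polymerase tail that is recruited by REST, fell by 1.87 ± 0.16 on the log2 scale, and the histone methyltransferase EHMT2 by 0.49 ± 0.12 (0.22 in the mean of its probe sets). The adjusted p of these 6 in limma ran up to 0.0055. KDM1A, RCOR1, HDAC1 and HDAC2, the core of CoREST, differed by 0.24, 0.18, 0.03 and -0.11 and did not pass. The remaining genes of the list did not pass either, namely RCOR3, EHMT1, CTDSP2, KDM5C, PHF21A, SMARCA4, ZNF217 and HDAC4, with differences of -0.32 to 0.16. In SAHA with pargyline minus SAHA, 4 of the 19 genes fell and 2 rose, beside 8.71% and 7.88% of all genes. KDM1A, HDAC1, HDAC2 and HMG20B fell, with differences of -0.41, -0.17, -0.27 and -0.30 (limma adjusted p = 0.014, 0.024, 0.029 and 0.012). CTDSP2 and CDYL rose, with differences of 0.49 and 0.23 (limma adjusted p = 0.0033 and 0.011). In pargyline minus DMSO, KDM1A and EHMT2 fell, with differences of -0.44 and -0.405 (limma adjusted p = 0.010 and 0.044). RCOR3, CTDSP2, PHF21A and HDAC5 rose there, with differences of 0.53, 0.41, 0.86 and 1.28 (limma adjusted p = 0.016, 0.0078, 0.0090 and 0.0021). How the calls of these single genes hold under other settings is not given for these contrasts.

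Of 17 further genes of dense-core granules and prohormone processing, 7 were dim, 3 rose and 4 fell, with a median of -0.0012. The others that passed, named after their values were seen, were SYTL2 and RAB26, which rose, and RAB27B, CADPS2 and PTPRN2, which fell by 1.96, 1.03 and 0.89. CPE, the carboxypeptidase that trims prohormones, rose by 0.77 ± 0.12. RAB27A, a GTPase that brings granules to the membrane, fell by 1.28 ± 0.12, to 9.36 ± 0.20 with both drugs, against 10.64 ± 0.10 with pargyline. Of 41 further genes of synaptic vesicles and SNAREs, 16 were dim, 16 rose and 4 fell, with a median of 0.02. ATP6V0A1, a subunit of the proton pump that fills vesicles, rose by 2.26 ± 0.12, SYNJ1, a lipid phosphatase of vesicle recycling, by 1.48 ± 0.17, and SYNGR1, a vesicle membrane protein, by 1.68 ± 0.08 (0.57 in the mean of its probe sets). VAMP8, a SNARE of endosomes and of secretion outside neurons, fell by 1.58 ± 0.05. CPE, RAB27A, ATP6V0A1, SYNJ1, SYNGR1 and VAMP8 passed in limma, with adjusted p up to 3.8e-04. Other SNARE genes that passed, named after their values were seen, were VAMP1, VAMP3, SNAP23, SNAP29 and STX3, which rose by 1.47, 0.60, 0.83, 0.79 and 0.90, and STX4, which fell by 0.83.

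Of 34 further genes of the neuronal cytoskeleton and of axons, 12 were dim, 12 rose and 1 fell, with a median of 0.05. MAP1A, a microtubule-associated protein, read 7.11 ± 0.40 with both drugs, against 2.70 ± 0.04 with pargyline, a rise of at least 4.32 on the log2 scale over the dim limit, and of 1.48 in the mean of its probe sets. PRPH, the neuronal intermediate filament peripherin, rose by 4.10 ± 0.48, to 7.18 ± 0.14 against 3.08 ± 0.92. NES, the intermediate filament nestin of neural progenitors, rose by 2.06 ± 0.19 and MAPRE3, which binds microtubule ends, by 2.40 ± 0.35. These 4 passed in limma with adjusted p up to 2.5e-04. The gene that fell was BASP1, a membrane protein of growth cones, by 0.37, and it was named after its value was seen. Peripherin and nestin thus rose where NEFL, NEFM, NEFH and INA stayed near background.

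Of 29 further genes of GABA and glutamate, 20 were dim, 2 rose and 3 fell, with a median of -0.01. ALDH5A1, which removes the product that ABAT makes, read 4.90, 4.60 and 6.47 with both drugs, 6.73, 6.69 and 7.19 with SAHA, 8.64, 9.12 and 9.26 with pargyline, and 9.30, 9.11 and 9.33 with DMSO. It fell by 3.68 ± 0.42 on the log2 scale (limma adjusted p = 4.6e-05), opposite to ABAT, and by 1.85 in the mean of its probe sets. GLUD1, glutamate dehydrogenase, fell by 0.66 ± 0.05 and GABARAP, which binds GABA receptors and acts in autophagy, rose by 0.41 ± 0.05. GLUL, glutamine synthetase, rose by 0.50 and the receptor subunit GABRA3 fell by 0.56, and both were named after their values were seen.

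Of 14 further neuronal calcium sensors and calcium-binding proteins, 8 were dim, 4 rose and 1 fell, with a median of 0.01. VSNL1 and HPCAL1, of the same visinin-like family as HPCAL4, rose by 2.78 ± 0.14 and 0.39 ± 0.05. CALB2, the calcium buffer calretinin, rose by 2.31 ± 0.19. NCS1, neuronal calcium sensor 1, changed more than these and in the other direction, and it was named after its values were seen. It fell by 3.01 ± 0.25 (limma adjusted p = 6.53e-06), to 3.53 ± 0.03 with both drugs, against 6.54 ± 0.39 with pargyline, and read 3.58 ± 0.03 with SAHA, against 6.81 ± 0.54 with DMSO. NCALD, also named after its values were seen, read 3.93 ± 0.54 with both drugs, 1.86 ± 0.15 with SAHA, 1.66 ± 0.07 with pargyline and 1.71 ± 0.03 with DMSO, and passed. Of 36 further genes linked to RE1 elements in the literature, 26 were dim, 4 rose and 2 fell, with a median of 0.0024. BDNF, a neurotrophin, rose by 0.99 ± 0.21 and CHRM3, a muscarinic receptor, fell by 2.26 ± 0.23. For VSNL1, HPCAL1, CALB2, BDNF and CHRM3 the adjusted p in limma ran up to 0.0025. The others that passed in this list, named after their values were seen, were PTPRH, CELSR3 and CDK5R2, which rose, and CDK5R1, which fell by 0.54. Beside these counts stand the 23.9% of all genes that rose and the 23.6% that fell in the same contrast.

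**Figure D5:**
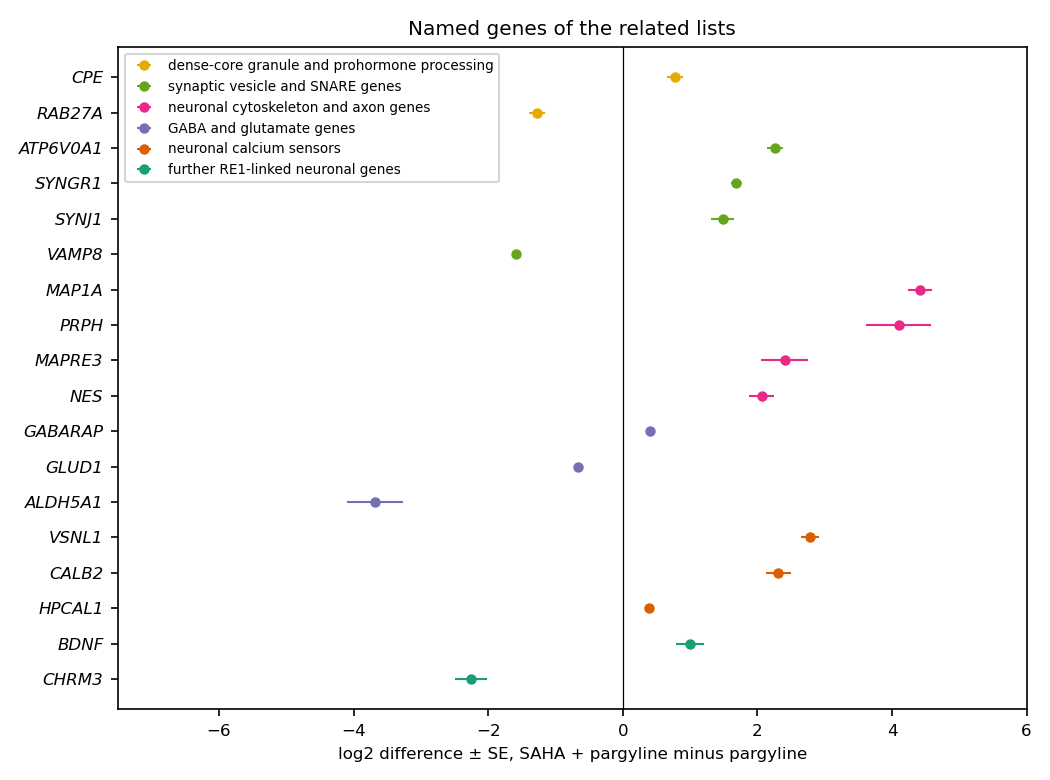
Log2 difference in SAHA with pargyline minus pargyline (horizontal axis, points, with standard errors from the model as bars, n = 3 arrays per group) for the named genes of 6 related lists, coloured by list. MAP1A and PRPH lie above 4, VSNL1 and CALB2 above 2, and ALDH5A1 and CHRM3 below -2.

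With pargyline alone the counts differed between the lists, beside 8.48% of all genes that rose and 7.45% that fell. Relative to DMSO, 4 of 19 genes of the REST complex rose and 2 fell, 4 of 17 granule genes rose and 0 fell, 4 of 41 vesicle genes rose and 2 fell, and 3 of 34 cytoskeletal genes rose and 3 fell. One of 29 GABA and glutamate genes and 2 of 14 calcium sensors rose and 0 fell, and 0 of the 36 genes linked to RE1 elements passed in either direction.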

How the data were processed

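RNA of the 12 cultures was purified on RNeasy columns after DNase, amplified and biotin-labelled by the MessageAmp Premier method, per the labels' protocols, and hybridised to human expression arrays. The deposited values are log2 intensities, made by the authors with RMA, per the submitters' processing notes; the version, and whether all arrays were normalized together, are not given in the sources used here. Nothing was subtracted, rescaled or filtered out for the values reported. RMA pulls weak signals together, so folds from values near background may be too small.

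Of 22277 probe sets, 62 were controls, 19064 were listed for 1 gene, 1043 for several and 2108 for none. Symbols were updated by gene identifier for 19052 of them with the RefSeq gene table of GRCh38.p14. Each of the 11963 genes was read from the probe set with the highest mean over the 12 arrays. Genes with more than 1 probe set numbered 4310. A linear model with a mean per group (8 residual degrees of freedom) was fitted in limma 3.58.1 under R 4.3.3 with lmFit and eBayes, on all arrays. Tests were two-sided, with Benjamini-Hochberg adjustment over all genes, and a gene rose or fell at an adjusted p under 0.05. Errors of differences are standard errors from this model, with a median of 0.077 over genes, and the number of arrays limits the precision. SAHA with pargyline minus pargyline shares arrays with each of the other 2 tested contrasts, and pargyline minus DMSO shares the DMSO arrays with the contrast used to pick HPCAL4, ABAT and SCG2. The fit was tested on simulated data.

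The members and the related lists were chosen with earlier results of these data known. All members may be named. Of each related list, up to 4 genes were named, those with the largest change in SAHA with pargyline minus pargyline that passed, had groups without overlap and a highest group mean above 7.06, the median over genes, and the REST complex in any case. The labels call the replicates biological but name no culture date. Deviations from group means correlated between all 3 equally numbered replicates with r over 0.1 for pargyline with DMSO (0.122 to 0.268) and for the combination with SAHA (0.257 to 0.535). Between unequal numbers r was -0.257 to 0.064 for pargyline with DMSO and -0.523 to 0.252 for the combination with SAHA. The highest of the latter was thus close to the lowest between equal numbers. In these contrasts the numbers were taken as pairs, from the data alone, and blocked values stand beside the results they change. For the combination with pargyline r was 0.097 to 0.131, against -0.11 to -0.013 between unequal numbers. The lowest was just under 0.1, so no pairing was taken, which leaves a pairing there undecided. Blocked values are given for SYT1, RAB3A and GAD2, whose calls the block changes. Alternatives were quantile normalization, centring, leaving out genes with a mean under 2.79, the mean of a gene's probe sets, a replicate block, a fit of 2 groups, array weights, a trended and robust prior, stricter thresholds, and leaving out each array. For named genes of the related lists they were added after seeing the data, as was naming some genes outside the rule, as said beside them.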

Additional observations from a re-analysis of the deposited data

How the results depend on the processing

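The 9 rises and 2 falls in SAHA with pargyline minus pargyline stayed within 1.5 times under every alternative run. In that contrast ABAT, DPYSL3, GAD1, HPCAL4, L1CAM, MAP2, MAPT, SCG2, STX1A and SYT11 passed in the same direction in all 20 alternatives, as did the 24 genes of the related lists named by rule, whereas SYP passed in 9 of the 19 that tested it. Counts in the other 2 contrasts are small and moved. For pargyline minus DMSO, the 2 rises became 1 in a fit of the 2 groups alone or at an adjusted p under 0.01, 0 at 2-fold or more, and 1 to 2 with an array left out. The 0 falls became 1 after quantile normalization, 21 with each array centred on its median and 2 with array weights. For SAHA with pargyline minus SAHA, the 2 rises became 1 in a fit of the 2 groups alone, 0 at an adjusted p under 0.01 or at 2-fold or more, and 0 to 2 with an array left out, and the 0 falls became 1 with the replicate block and 0 to 1 with an array left out. The cause was not tested. With the replicate block, SAHA with pargyline minus pargyline had 11 rises and 3 falls, with SYT1 (limma adjusted p = 0.0199), RAB3A (0.0361) and GAD2 (0.0243) added, and the block changed no other call of a member there. Of the genes named after their values were seen, VAMP1 kept its call in 18 of 20 alternatives, GLUL in 16 of 20, RAB26 in 16 of 19 and PTPRN2 in 18 of 19, and the others in all that tested them. Signals near background limit what can be read for the 16 dim genes.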
